A study of Mus musculus with 12 samples.

Results

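The genes described here are 31 components of the cardiac contractile and excitation machinery, measured in mouse induced pluripotent stem cells (iPSCs) at day 0 and in their derivatives at day 4 of differentiation. For each gene name in the set the probe set that carries that symbol alone and has the highest mean over all 12 arrays was taken, and all 31 had 1 such probe set among 19938 genes chosen in the same way.

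The samples formed 4 groups of 3 arrays each. The population sorted at day 4 was labelled as enriched for cardiac progenitor cells (CPCs) and gated by FACS for FLK1 and PDGFRα on the cell surface. The day 4 cardiac cultures had gone through an optimized cardiac differentiation, and the third day 4 group consisted of spontaneously differentiated cells. The control was the undifferentiated iPSCs at day 0. The labels name no strain, age or genetic change, and nothing in them says that replicates were separate cultures, so a p-value here covers the spread between arrays alone, which may be technical.

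A sarcomere is built from thin filaments of actin, tropomyosin and troponin that slide along thick filaments of myosin, anchored at the Z disc and M band and spanned by titin. Contraction is triggered when calcium enters through voltage-gated channels, releases further calcium from the sarcoplasmic reticulum through the ryanodine receptor, binds troponin C and is then pumped back. In the mouse embryo these genes come on in the cardiac crescent, after the mesoderm that expresses Mesp1 has left the primitive streak, under factors that include GATA4, NKX2-5, MEF2C, TBX5 and the serum response factor SRF. Tropomyosins, the calcium pump gene Atp2a2 and some actins are also transcribed in cells that are not muscle.

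Signals are log2 values after RMA, the authors' normalization, so a difference of 1 is a doubling. Arrays give no read depth, and their number limits the precision. Kdr, which encodes FLK1, measured 10.23, 6.25 and 6.03 in sorted cells, 5.42, 10.81 and 9.01 in cardiac cultures and 9.83, 10.71 and 10.27 in spontaneous cells, against 5.50, 5.54 and 5.78 in iPSCs, each by replicate number. Pdgfra, the other gene of the gate, measured 11.13, 8.47 and 8.29 in sorted cells, 9.42, 10.26 and 9.60 in cardiac cultures and 10.35, 10 and 9.71 in spontaneous cells, against 8.75, 9.14 and 8.81 in iPSCs. The sorted CPC libraries labelled replicates 2 and 3 were thus near day 0 in Kdr and below it in Pdgfra, and the cardiac library labelled replicate 1 was near day 0 in Kdr. The main counts, and single values that change their call or move by much, are also given without these 3 libraries. In sorted cells such a value rests on replicate 1 alone and takes its spread from the other groups. The mean signal of 7 nascent mesoderm markers ran from 7.15 to 9.80 in sorted cells, from 6.89 to 9.45 in cardiac cultures and from 8.97 to 9.15 in spontaneous cells, against 6.54 to 6.64 in iPSCs. The list holds Kdr and Pdgfra themselves, and its other 5 genes averaged 9.45, 8.0 and 7.14 in sorted cells, 6.68, 9.02 and 8.30 in cardiac cultures and 8.70, 8.66 and 8.57 in spontaneous cells, against 6.45, 6.22 and 6.38 in iPSCs. Sorted replicates 2 and 3 thus lay between sorted replicate 1 and day 0 in these, with Mixl1 at 10.35 and 7.52 and Eomes at 10.34 and 8.6. Of the 7 markers, 2 were called higher at day 4, the mesendoderm factors Mixl1 (4.18) and Eomes (3.84). The mean of 8 pluripotency markers ran from 8.22 to 10.10, from 9.04 to 9.74 and from 8.88 to 9.45 in the same day 4 groups, against 10.92 to 11.15 in iPSCs, and 6 were called lower, among them Fbxo15 (-3.06), Zfp42 (-3.03), Esrrb (-2.73) and Sox2 (-1.73).

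The contractile genes as a group were not called higher at day 4 than in iPSCs. With the 3 day 4 groups averaged, 1 of the 31 genes was called higher and 0 were called lower, where a call needs an adjusted p under 0.05 in limma and an absolute log2 difference of at least 1. Among all genes 1.46% were called higher and 1.4% lower, so the count of 31 genes stood near the background. The gene called higher was Tpm1. The median difference of the 31 genes was -0.06, beside -0.02 for all genes, and 8 of the 31 had an unadjusted p under 0.05. The highest p among these was that of Actn2 (0.0497, limma). It ranked 4989 by p among all 19938 genes, so many other genes passed this level too. For 27 of the 31 genes the 95% interval of the difference lay inside -1 to 1, as it did for 91.6% of all genes. The other 4 were Tpm1, Tnnc1, Actc1 and Des. In such bulk samples fewer cells that express a gene and less RNA per cell cannot be told apart.

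**Figure D1:**
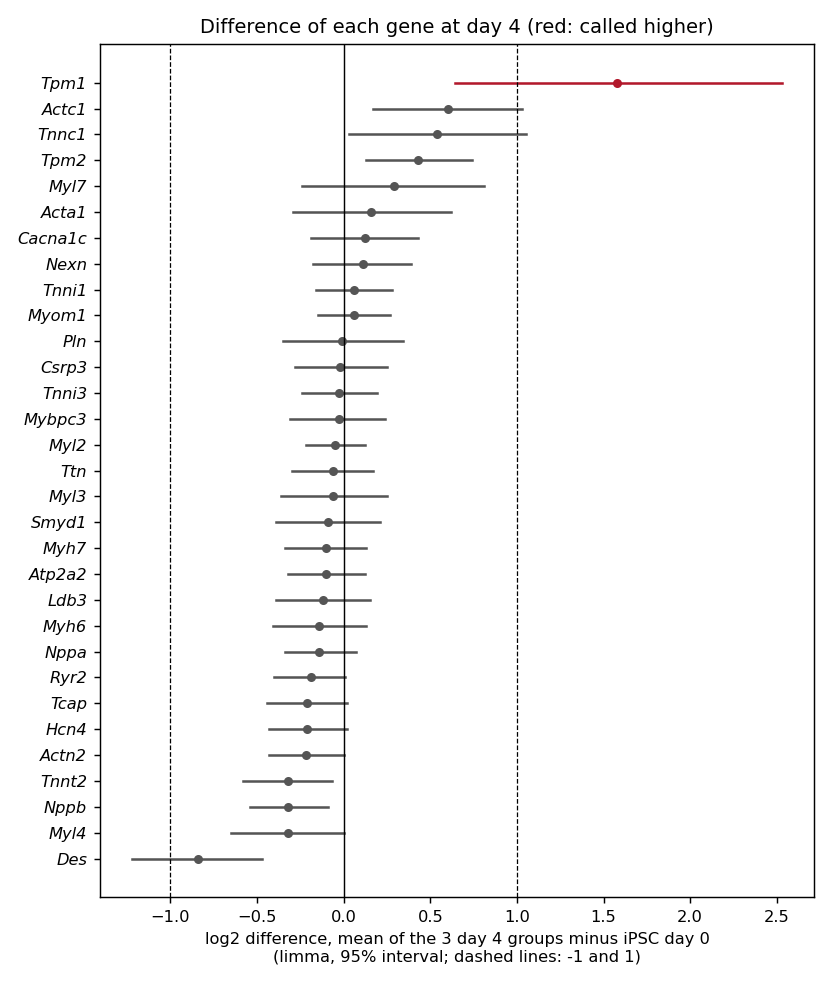
The points give the log2 difference between the mean of the 3 day 4 groups and iPSC day 0 for each of the 31 genes, with limma's 95% interval as the line, and the dashed lines stand at -1 and 1. Tpm1, in red, was the gene called higher, at 1.58, and Des lay lowest, at -0.84.

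Taken singly, the day 4 groups gave few calls against iPSCs. In sorted cells 0 of 31 genes were called in limma, while 0.787% of all genes were called higher and 1.32% lower, and 6 of the 31 had an unadjusted p under 0.05. In cardiac cultures 0 were called, against 1.26% of all genes higher and 0.943% lower, and 9 had an unadjusted p under 0.05. The highest p among these was that of Actc1 in sorted cells (0.044) and of Hcn4 in cardiac cultures (0.0427, both limma). They ranked 3602 and 4103 by p among all 19938 genes, so many other genes passed this level too. In spontaneous cells 1 was called higher and 0 lower, against 1.99% and 1.57% of all genes, and the gene was Tnnc1. The medians over the 31 genes were 0.06, -0.17 and -0.06 in these comparisons, beside 0.03, -0.05 and -0.03 over all genes. The intervals lay inside -1 to 1 for 27, 28 and 26 of the 31 genes, beside 90.1%, 89.6% and 87.6% of all genes. The 3 comparisons share the same iPSC arrays and are not independent.

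Counted by arrays that do not overlap with day 0, lower genes were as many as higher ones or more. In sorted cells 2 genes were above all iPSC arrays (10.2% of all genes) and 4 were below (11.3%). In cardiac cultures 2 were above (12.8%) and 8 below (16.2%), and in spontaneous cells 7 were above (19.4%) and 10 below (21.6%). The 7 were Tpm1, Tpm2, Tnnc1, Actc1, Myl7, Cacna1c and Nexn, and the 10 were Tnnt2, Myh6, Myl2, Actn2, Ttn, Des, Ryr2, Hcn4, Nppa and Nppb.

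The promoters of 5 thin filament, actin and myosin light chain genes are printed here because these genes carry the day 4 values described next: both called genes, both sarcomeric actins, and Myl7, which had the widest range over arrays among the myosin genes. Each run holds the 250 bases before the RefSeq start on GRCm38.p6, read 5′ to 3′ on the gene's strand, so the last base is position -1. Capitals mark matches, on either strand, to GATAA (bound by GATA factors), CATTCC (bound by TEAD factors), the CArG box (bound by SRF) or the MEF2 box. The regions are, in order, chr9:67049214-67049463 (minus strand), chr14:31208062-31208311 (plus), chr2:114052876-114053125 (minus), chr8:123894776-123895025 (minus) and chr11:5898783-5899032 (minus).
Tpm1: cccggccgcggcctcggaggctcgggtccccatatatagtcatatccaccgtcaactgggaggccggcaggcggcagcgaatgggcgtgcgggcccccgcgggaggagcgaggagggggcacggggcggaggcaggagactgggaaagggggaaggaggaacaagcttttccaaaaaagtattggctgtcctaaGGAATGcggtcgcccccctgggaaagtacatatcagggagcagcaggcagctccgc
Tnnc1: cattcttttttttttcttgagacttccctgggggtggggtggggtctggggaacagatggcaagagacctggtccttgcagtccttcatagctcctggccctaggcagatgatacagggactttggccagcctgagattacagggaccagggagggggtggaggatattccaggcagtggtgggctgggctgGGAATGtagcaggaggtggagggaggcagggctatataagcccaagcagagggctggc
Actc1: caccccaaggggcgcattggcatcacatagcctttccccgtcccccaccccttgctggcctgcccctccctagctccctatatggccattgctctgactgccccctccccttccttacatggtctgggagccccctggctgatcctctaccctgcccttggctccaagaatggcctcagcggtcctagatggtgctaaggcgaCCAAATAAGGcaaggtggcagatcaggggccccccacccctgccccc
Acta1: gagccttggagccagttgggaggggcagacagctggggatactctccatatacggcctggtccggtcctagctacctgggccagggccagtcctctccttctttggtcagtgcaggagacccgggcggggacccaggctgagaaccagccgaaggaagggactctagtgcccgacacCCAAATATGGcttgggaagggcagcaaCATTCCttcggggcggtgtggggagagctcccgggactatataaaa
Myl7: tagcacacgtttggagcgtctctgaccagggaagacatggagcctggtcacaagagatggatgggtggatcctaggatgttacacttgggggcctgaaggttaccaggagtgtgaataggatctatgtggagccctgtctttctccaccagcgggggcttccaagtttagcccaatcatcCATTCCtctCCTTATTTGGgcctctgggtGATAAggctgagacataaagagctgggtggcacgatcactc

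Tpm1 and Tnnc1 each held 1 CATTCC match, in both cases read on the opposite strand, at -56 to -51 in Tpm1 and at -58 to -53 in Tnnc1. Actc1 and Acta1 each held 1 CArG box, at -47 to -38 and at -73 to -64, and Acta1 also held a CATTCC match at -46 to -41. Myl7 held a CATTCC match at -70 to -65, a CArG box at -61 to -52 and a GATAA match at -41 to -37, none of which overlapped. Of the 31 genes, 28 had a promoter in the table, with 36 starts in all. A CArG box was found in 7 of the 36 (19.4%), beside 1.47% of 32851 promoters of the same length. These were 6 of the 28 genes, since 2 overlapping starts of Ldb3 share 1 box. CATTCC was found in 9 of the 36 (25%), beside 12.6%, and GATAA in 10 (27.8%), beside 22.6%. The MEF2 box was found in 2 (5.56%), beside 2.92%. These are letter matches in 1 window, not binding sites.

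Tpm1 encodes α-tropomyosin, the coiled coil that lies along actin and gates myosin binding in muscle, and that stabilises actin cables in other cells. It measured 8.93, 9.71 and 11.69 in sorted cells, 8.86, 10.03 and 9.84 in cardiac cultures and 9.52, 10.29 and 10.54 in spontaneous cells, against 8.45, 8.36 and 8.25 in iPSCs. All 9 day 4 arrays were above all 3 iPSC arrays, as they were for 4.65% of all genes. Sorted replicate 3 was the highest array, while sorted replicate 1 and cardiac replicate 1 lay closest to day 0. The averaged day 4 difference was 1.58 ± 0.44 (SE, 2.99-fold, 95% interval 0.64 to 2.53, adjusted p = 0.0331, limma). By group it was 1.76 in sorted cells (adjusted p = 0.0831), 1.22 in cardiac cultures (adjusted p = 0.2) and 1.76 in spontaneous cells (adjusted p = 0.0557), each with an SE of 0.54. None of these 3 passed here, but the call depended on the fit. With only the arrays compared, the spontaneous (adjusted p = 0.00119) and cardiac (adjusted p = 0.031) differences passed.

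The averaged Tpm1 call passed in 5 of 12 fits that each left out 1 array, with differences of 1.32 to 1.78 and adjusted p = 0.00512 to 0.116. It was lost without any 1 of the iPSC arrays, of spontaneous replicates 2 and 3, or of cardiac replicates 2 and 3. Without all 3 libraries that were near day 0 in Kdr, the averaged difference was 1.31 (adjusted p = 0.000407). The cardiac difference was then 1.58 (adjusted p = 0.000937) and the spontaneous one 1.76 (adjusted p = 0.000151). The sorted difference, on replicate 1 alone, was 0.58 (adjusted p = 0.256). Without sorted replicate 3 it was 0.97 (adjusted p = 0.124), and without sorted replicate 1 it was 2.35 (adjusted p = 0.0186). With 1 probe set per gene, striated and other Tpm1 isoforms cannot be told apart.

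Tpm2, which encodes β-tropomyosin, differed less. It measured 6.98, 7.31 and 7.51 in sorted cells, 6.95, 7.53 and 7.22 in cardiac cultures and 7.05, 7.15 and 7.28 in spontaneous cells, against 6.80, 6.64 and 6.92 in iPSCs. These day 4 arrays also lay above every iPSC array, by a narrow margin, but the averaged difference of 0.43 ± 0.14 (SE) did not pass (adjusted p = 0.0665). Leaving out the 3 libraries gave 0.38 (adjusted p = 0.0407), under the minimum of 1. Tpm1 and Tpm2 were the 2 genes of the 31 with no overlap in this direction.

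Tnnc1 encodes troponin C of cardiac and slow skeletal muscle, the calcium sensor of the thin filament. Its values were 6.41, 6.26 and 7.2 in sorted cells, 6.30, 6.30 and 6.65 in cardiac cultures and 6.51, 7.70 and 7.6 in spontaneous cells, against 6.30, 6.19 and 6.20 in iPSCs. Spontaneous replicates 2 and 3 and sorted replicate 3 were high, and the other 6 day 4 arrays lay within 0.5 of the iPSC arrays. The spontaneous difference was 1.04 ± 0.29 (SE, 2.06-fold, adjusted p = 0.0395, limma). This call passed in 1 of 6 fits that left out an array of either group, with differences of 0.82 to 1.42 and adjusted p = 0.00623 to 0.174, and the fit that passed was the one without spontaneous replicate 1. Tnnc1 differed from iPSCs by 0.39 in sorted cells (adjusted p = 0.524) and by 0.19 in cardiac cultures (adjusted p = 0.72). Without sorted replicate 3 the first of these was 0.10, and without all 3 libraries near day 0 in Kdr they were 0.18 and 0.24.

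The other troponin genes were not called in any comparison. Tnnt2, cardiac troponin T and a usual marker of a committed cardiomyocyte, measured 6.64, 6.25 and 6.66 in sorted cells, 6.41, 6.27 and 6.62 in cardiac cultures and 6.33, 6.64 and 6.61 in spontaneous cells, against 6.87, 6.76 and 6.81 in iPSCs. Its day 4 arrays were all below day 0, as they were for 5.15% of all genes, with an averaged difference of -0.32 ± 0.12 (SE, adjusted p = 0.101) and an interval of -0.58 to -0.07. With the 3 libraries left out it was -0.28 (adjusted p = 0.134). Tnni1, the troponin I of slow muscle and embryonic heart, measured 6.36, 6.06 and 6.24 in sorted cells, 6.0, 6.0 and 6.07 in cardiac cultures and 6.09, 6.35 and 6.19 in spontaneous cells, against 6.16, 5.90 and 6.22 in iPSCs. It differed by 0.06 on average (interval -0.16 to 0.28), with overlap in each group. Tnni3, the troponin I of the mature heart, measured 6.78, 6.59 and 6.90 in sorted cells, 6.63, 6.5 and 6.52 in cardiac cultures and 6.62, 6.64 and 6.53 in spontaneous cells, against 6.80, 6.52 and 6.65 in iPSCs. It differed by -0.03 (interval -0.24 to 0.19), again with overlapping groups. Nexn, an actin-binding protein of the Z disc, ranged from 4.45 to 5.24 over the 12 arrays and differed by 0.11 (interval -0.18 to 0.39).

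Actc1, the α-actin of the heart, measured 8.15, 7.52 and 8.44 in sorted cells, 7.55, 7.80 and 8.14 in cardiac cultures and 8.12, 8.52 and 8.62 in spontaneous cells, against 7.15, 7.73 and 7.61 in iPSCs. The spontaneous arrays lay above all iPSC arrays, while both other day 4 groups overlapped with them. The spontaneous difference of 0.93 ± 0.24 (SE, 1.90-fold) had an adjusted p = 0.0305 in limma but stayed below the minimum of 1. Leaving out 1 array gave 0.75 to 1.08 (adjusted p = 0.0365 to 0.133). Sorted cells differed from iPSCs by 0.54 (adjusted p = 0.244) and cardiac cultures by 0.33 (adjusted p = 0.425). Without the 3 libraries near day 0 in Kdr these values were 0.66 (adjusted p = 0.136, on sorted replicate 1 alone) and 0.47 (adjusted p = 0.142).

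Acta1, the α-actin of skeletal muscle and of the embryonic heart, stood out in 1 array. It measured 7.55, 7.49 and 8.71 in sorted cells, 7.47, 7.44 and 7.68 in cardiac cultures and 7.65, 7.90 and 7.66 in spontaneous cells, against 7.35, 7.74 and 7.61 in iPSCs. Sorted replicate 3 was the highest array by a clear margin. The sorted difference was 0.35 (adjusted p = 0.521), and -0.05 without sorted replicate 3. The coding sequences of Acta1 and Actc1 are nearly alike, as are those of Myh6 and Myh7, so it is uncertain which member of each pair a signal belongs to.

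**Figure D2:**
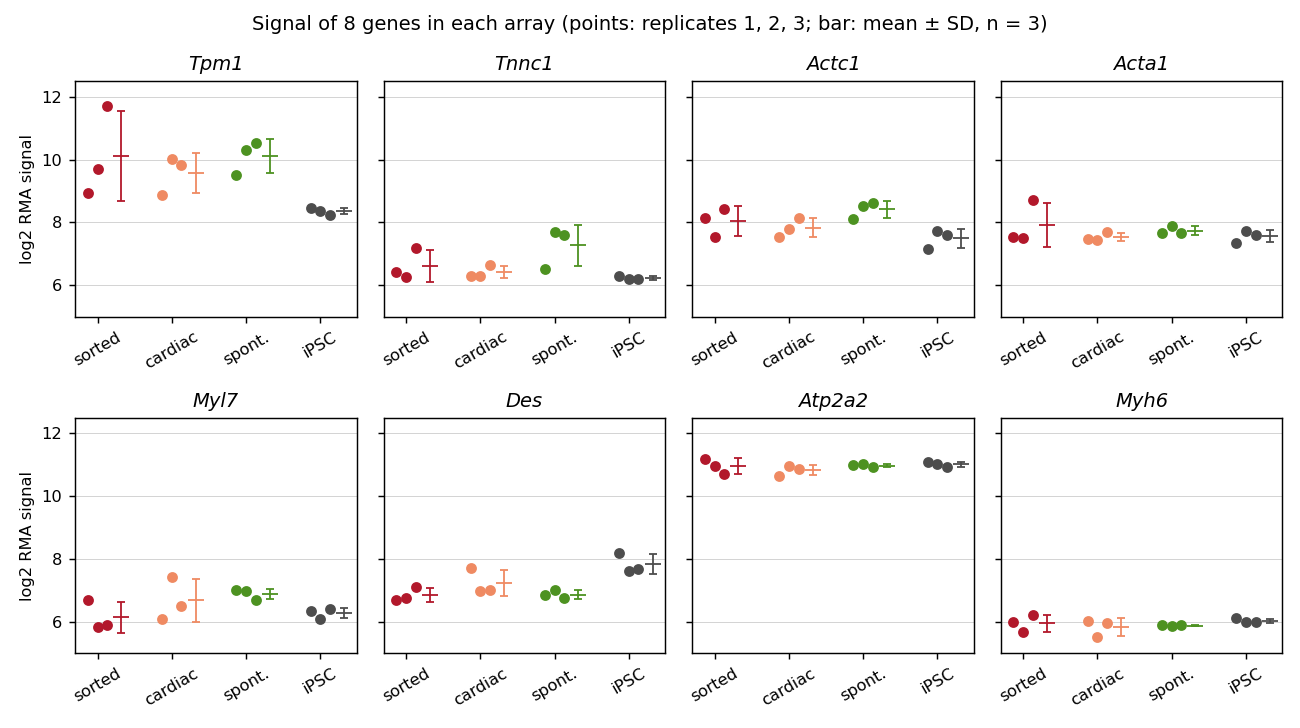
Each panel plots the log2 RMA signal of 1 gene in the 12 arrays, with the 3 replicates of a group as points from left to right and the mean ± SD beside them. Tpm1 was above day 0 in every day 4 array, with 11.69 in sorted replicate 3, while Des was highest in iPSCs, at 8.20.

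The myosin heavy chains gave no call. Myh6, the fast α heavy chain, measured 5.99, 5.67 and 6.22 in sorted cells, 6.02, 5.52 and 5.97 in cardiac cultures and 5.90, 5.86 and 5.90 in spontaneous cells, against 6.11, 5.99 and 6.0 in iPSCs, an averaged difference of -0.14 (interval -0.41 to 0.13). Myh7, the slow β heavy chain, measured 5.8, 5.62 and 6.10 in sorted cells, 5.53, 5.36 and 5.75 in cardiac cultures and 5.72, 5.73 and 5.65 in spontaneous cells, against 5.70, 5.84 and 5.86 in iPSCs, an averaged difference of -0.10 (interval -0.34 to 0.13). In both genes cardiac replicate 2 was the lowest array and sorted replicate 3 the highest. Among the light chains, Myl2 of the ventricle ranged from 5.21 to 5.69 and differed by -0.05 (interval -0.22 to 0.12). Myl3, the ventricular essential light chain, measured 6.08, 6.03 and 6.07 in sorted cells, 6.37, 5.52 and 6.18 in cardiac cultures and 6.10, 5.97 and 6.03 in spontaneous cells, against 6.17, 6.08 and 6.04 in iPSCs. It differed by -0.06 (interval -0.36 to 0.25), and cardiac replicates 1 and 2 were its highest and lowest arrays.

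Myl4, the essential light chain of the atrium and embryonic heart, measured 6.28, 6.07 and 6.36 in sorted cells, 6.06, 6.41 and 6.26 in cardiac cultures and 6.24, 7.05 and 6.87 in spontaneous cells, against 6.81, 6.59 and 6.76 in iPSCs. Every sorted and cardiac array of Myl4 was below day 0, with differences of -0.48 in each (adjusted p = 0.168 and 0.148), and the spontaneous arrays overlapped with it.

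Myl7, the regulatory light chain of the atrium and one of the earliest myosin genes of the heart tube, varied within groups. It measured 6.71, 5.83 and 5.89 in sorted cells, 6.09, 7.44 and 6.52 in cardiac cultures and 7.01, 6.97 and 6.69 in spontaneous cells, against 6.35, 6.10 and 6.41 in iPSCs. The 3 libraries near day 0 in Kdr held the lowest 3 Myl7 values of the series, and the other 6 day 4 arrays were all above the highest iPSC array. This division was seen after the values were known and is a description. The averaged difference was 0.29 (adjusted p = 0.527), and 0.58 (adjusted p = 0.0421) without the 3 libraries, under the minimum of 1. By group Myl7 differed from iPSCs by -0.14 in sorted cells (adjusted p = 0.858), 0.40 in cardiac cultures (adjusted p = 0.434) and 0.61 in spontaneous cells (adjusted p = 0.239), none of which passed. Without the 3 libraries the sorted and cardiac differences were 0.43 (adjusted p = 0.403, on sorted replicate 1 alone) and 0.70 (adjusted p = 0.0593).

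Of the scaffold genes, those of titin, the Z disc and the M band gave no call. Actn2, the α-actinin that crosslinks actin at the Z disc, measured 6.14, 5.98 and 6.41 in sorted cells, 6.32, 6.09 and 6.12 in cardiac cultures and 6.09, 6.11 and 6.05 in spontaneous cells, against 6.38, 6.35 and 6.36 in iPSCs. It differed by -0.22 on average (interval -0.43 to 0.00), and sorted replicate 3 alone reached above day 0. Mybpc3, the cardiac myosin-binding protein C of the thick filament, measured 6.80, 6.49 and 6.98 in sorted cells, 6.47, 6.12 and 6.64 in cardiac cultures and 6.65, 6.54 and 6.52 in spontaneous cells, against 6.55, 6.75 and 6.53 in iPSCs. It differed by -0.03 (interval -0.31 to 0.24), with sorted replicate 3 highest and cardiac replicate 2 lowest. Ldb3, a PDZ and LIM protein of the Z disc, measured 6.44, 6.10 and 6.61 in sorted cells, 6.21, 5.83 and 6.26 in cardiac cultures and 6.06, 6.23 and 6.16 in spontaneous cells, against 6.34, 6.44 and 6.22 in iPSCs. Csrp3, the muscle LIM protein, measured 6.47, 6.12 and 6.57 in sorted cells, 6.24, 5.8 and 6.30 in cardiac cultures and 6.23, 6.35 and 6.22 in spontaneous cells, against 6.30, 6.35 and 6.17 in iPSCs. In both the highest and lowest arrays were those of Mybpc3, and the averaged differences were -0.12 (interval -0.39 to 0.15) and -0.02 (interval -0.28 to 0.25).

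Tcap, the telethonin that caps titin at the Z disc, measured 6.35, 5.97 and 6.38 in sorted cells, 5.98, 5.91 and 5.97 in cardiac cultures and 6.33, 6.07 and 6.02 in spontaneous cells, against 6.25, 6.42 and 6.29 in iPSCs. Its cardiac arrays were all below day 0, and the averaged difference was -0.21 (interval -0.44 to 0.02). Ttn, which encodes titin, ranged from 5.03 to 5.71 over the 12 arrays and differed by -0.06 (interval -0.30 to 0.17). Myom1, the myomesin of the M band, ranged from 5.19 to 5.8 and differed by 0.06 (interval -0.15 to 0.27). Smyd1, a histone methyltransferase needed for growth of the embryonic heart, ranged from 5.01 to 6.0 and differed by -0.09 (interval -0.39 to 0.21). All 3 were highest in sorted replicate 3.

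Des, the intermediate filament gene desmin, differed in the direction opposite to Tpm1. It measured 6.71, 6.76 and 7.11 in sorted cells, 7.72, 6.99 and 7.01 in cardiac cultures and 6.85, 7.02 and 6.75 in spontaneous cells, against 8.20, 7.63 and 7.67 in iPSCs. All sorted and spontaneous arrays were below day 0, and cardiac replicate 1 alone overlapped with it. The averaged difference was -0.84 ± 0.17 (SE, 0.558-fold, adjusted p = 0.00765, limma), which passed the test but not the minimum of 1. Leaving out 1 array gave -0.94 to -0.66 with adjusted p = 0.00112 to 0.0669, the highest without iPSC replicate 1. The sorted difference was -0.97 (adjusted p = 0.0192), and on sorted replicate 1 alone, with the spread taken from the other groups, it was -1.12 (adjusted p = 0.0466).

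Of 10 markers of fibroblasts and feeder cells 2 were called lower at day 4 and 0 higher, the proteoglycan gene Dcn by -2.01 (adjusted p = 0.000238) and the collagen gene Col1a2 by -1.07 (adjusted p = 0.00284). Without iPSC replicate 1 or 3 Col1a2 stayed under the minimum, at the least -0.92. Not all members went this way: Fbln1 (fibulin) differed by 0.53 (adjusted p = 0.337), Pdgfrb by 0.09 (adjusted p = 0.886) and Lum (lumican) by 0.05 (adjusted p = 0.683). The mean of that list ran from 6.18 to 6.44 in sorted cells, 6.26 to 6.33 in cardiac cultures and 6.37 to 6.52 in spontaneous cells, against 6.59 to 7.10 in iPSCs. Dcn itself measured 5.6, 5.84 and 5.66 in sorted cells, 6.13, 5.78 and 6.33 in cardiac cultures and 5.96, 5.66 and 5.8 in spontaneous cells, against 8.39, 6.95 and 8.27 in iPSCs, and for both Des and Dcn the highest array was iPSC replicate 1. Their part in the Des difference was not tested. Of 8 endothelial markers, with a median difference of -0.13, 1 was called lower and 0 higher. The gene called lower was the adhesion gene Pecam1 (-2.30, adjusted p = 0.000599, limma). Which cells gave the Pecam1 signal in iPSCs was not tested. Etv2 of the same list went the other way. Its mean was 6.62 in sorted cells, 7.36 in cardiac cultures and 7.46 in spontaneous cells, against 6.36 in iPSCs. Without the 3 libraries near day 0 in Kdr, Etv2 was called higher in cardiac cultures and in spontaneous cells. Etv2 was low in the same libraries, at 6.30 in cardiac replicate 1 and 6.29 and 6.60 in sorted replicates 2 and 3. These calls are therefore not independent of the choice to leave those libraries out.

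Among the calcium and channel genes Atp2a2, the calcium pump of the sarcoplasmic and endoplasmic reticulum, lay near 11 in every array. It measured 11.20, 10.96 and 10.70 in sorted cells, 10.66, 10.95 and 10.88 in cardiac cultures and 10.98, 11.02 and 10.93 in spontaneous cells, against 11.10, 11.03 and 10.93 in iPSCs. The averaged difference was -0.10 ± 0.10 (SE, interval -0.32 to 0.12), and the groups overlapped. Pln, the inhibitor of that pump in heart muscle, ranged from 4.65 to 5.64 and differed by -0.01 (interval -0.35 to 0.34). Ryr2, the cardiac calcium release channel, measured 5.81, 5.59 and 5.84 in sorted cells, 5.72, 5.41 and 5.74 in cardiac cultures and 5.64, 5.81 and 5.78 in spontaneous cells, against 5.90, 5.89 and 5.90 in iPSCs. All of its day 4 arrays were below day 0, yet the averaged difference was only -0.19 (interval -0.40 to 0.01, adjusted p = 0.239). Cacna1c, the pore of the L-type calcium channel, ranged from 4.90 to 5.74 and differed by 0.12 (interval -0.19 to 0.43). Hcn4, the pacemaker channel that marks the first heart field in the mouse, measured 6.12, 5.98 and 6.4 in sorted cells, 5.97, 5.91 and 6.21 in cardiac cultures and 6.03, 6.24 and 6.15 in spontaneous cells, against 6.33, 6.27 and 6.35 in iPSCs. Its cardiac and spontaneous arrays were below day 0, sorted replicate 3 was the highest array, and the averaged difference was -0.21 (interval -0.43 to 0.02).

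The natriuretic peptide genes of the working myocardium were not called either. Nppa measured 6.06, 5.94 and 6.33 in sorted cells, 6.11, 5.98 and 5.97 in cardiac cultures and 5.88, 5.96 and 6.02 in spontaneous cells, against 6.28, 6.12 and 6.10 in iPSCs. The averaged difference was -0.14 (interval -0.34 to 0.07), and its spontaneous arrays were all below day 0. Nppb measured 6.20, 5.90 and 6.29 in sorted cells, 5.77, 5.56 and 5.83 in cardiac cultures and 5.87, 5.79 and 5.84 in spontaneous cells, against 6.12, 6.38 and 6.14 in iPSCs. It differed by -0.32 (interval -0.54 to -0.09, adjusted p = 0.0691), and in cardiac cultures it reached an adjusted p = 0.0406 in limma with a difference of -0.49, short of the minimum.

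**Figure D3:**
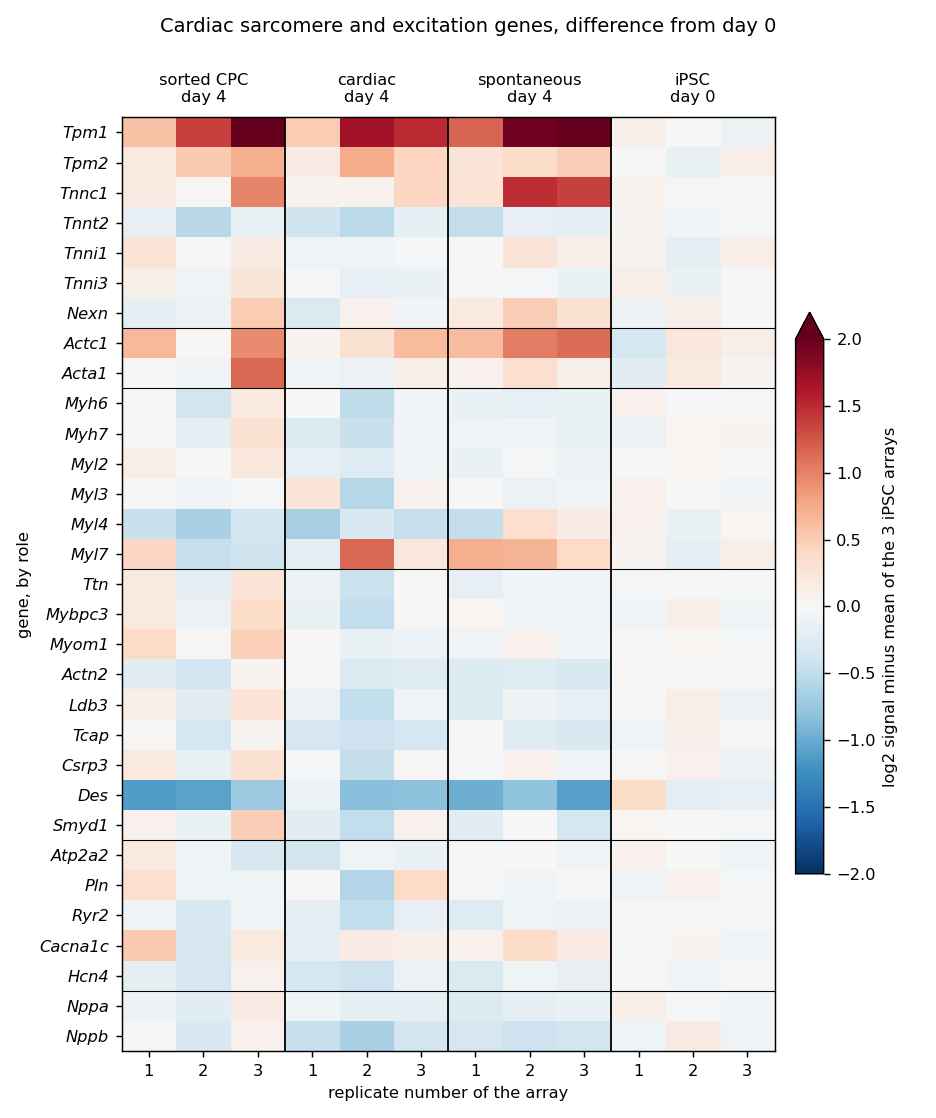
Rows are the 31 genes ordered by role, columns are the 12 arrays, and colour gives the log2 signal minus the mean of the 3 iPSC arrays, with colours capped at -2 and 2. Tpm1 was red across day 4. Des was blue there except in cardiac replicate 1, which lay near the iPSC mean, at 7.72 against 7.83. Sorted replicate 3 was red for Tpm1, Acta1 and Tnnc1. Cardiac replicate 2, which held the lowest value for 16 of the 31 genes, was pale blue over many weak genes.

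Which genes counted as on at day 4 depended on the level chosen, and the count is a description, since probe sets differ in affinity and background. Counted as on when all 3 arrays of a group exceeded the 95th percentile of 1210 probe sets for olfactory and vomeronasal receptors in the same array, 22 of 31 genes were on in sorted cells (64.3% of all genes), 23 in cardiac cultures (67.4%) and 24 in spontaneous cells (68.5%), against 24 in iPSCs (67.5%). The count at day 4 was thus no higher than at day 0. Myl2, Ttn, Myom1, Pln, Cacna1c, Smyd1 and Nexn were on in no group, and Myh7 and Ryr2 were on in iPSCs but not in sorted cells. With the 99th percentile the count was 8 in sorted cells (47% of all genes), 10 in cardiac cultures (53.2%) and 12 in spontaneous cells (54.8%), against 10 in iPSCs (51.9%). With the array median it was 10 (53.5%), 10 (53.9%) and 13 (56%) in the same day 4 groups, against 14 (55.4%) in iPSCs. Left without the 3 libraries, the counts by these levels were 24, 11 and 12 on 2 cardiac arrays, fewer arrays being easier to pass. The share of all genes was not counted on these arrays, so the counts cannot be set beside those above. Sorted cells then hold replicate 1 alone, and no count is given for them.

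By the 99th percentile 8 genes were on in every group: Actc1, Acta1, Tnni3, Tpm1, Tpm2, Mybpc3, Des and Atp2a2. Myl7 and Tnnc1 were on in spontaneous cells and not in iPSCs, and Tnnc1 also in cardiac cultures. Tnnt2 and Myl4 were on in iPSCs and not in sorted cells. By this level the listed genes on at day 4 were largely ones also on in iPSCs. The share of all genes on in every group was not counted. Whether this overlap is larger than for other genes therefore cannot be told, and it is a description only. The skeletal muscle gene Tnni2 also passed the level in iPSCs, at 7.22, 7.16 and 7.16, against levels of 6.36, 6.43 and 6.34. Whether Tnni2 is transcribed in these cells was not tested. Since probe sets differ in affinity and background, passing the level does not by itself show that a gene is transcribed.

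The weak genes varied between arrays of 1 group. The mean of the 16 genes whose signal over all arrays lay under 6.19, the median of all probe sets, was 5.83, 5.56 and 5.93 in sorted cells, 5.59, 5.41 and 5.69 in cardiac cultures and 5.63, 5.72 and 5.65 in spontaneous cells, against 5.74, 5.76 and 5.73 in iPSCs. The 95th percentile of the sensory receptors was lowest in cardiac replicate 2, at 5.35, and highest in sorted replicate 1, at 5.91, followed by sorted replicate 3, at 5.78. Cardiac replicate 2 gave the lowest value of the series for 16 of the 31 genes, beside 25.8% of all genes. Sorted replicate 3 gave the highest value for 16 of the 31, beside 18.2% of all genes. The part of the array background in these small differences was not tested.

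Sorted replicate 3 was also the array with the highest smooth muscle mean. Tagln (transgelin, an actin-binding protein of smooth muscle) measured 7.01, 7.72 and 10.97 in sorted replicates 1, 2 and 3, against 5.91 to 7.14 in iPSCs. Acta2 (smooth muscle α-actin) measured 6.99, 7.11 and 9.41, against 6.70 to 7.49 in iPSCs. Cnn1 (calponin) measured 7.04, 7.66 and 8.79, against 6.19 to 6.33 in iPSCs. Replicate 3 was the highest of the sorted arrays in each. Ankrd1, a stretch-responsive repeat protein of the sarcomere, measured 5.65, 5.22 and 8.08, against 5.84 to 6.07 in iPSCs. Tagln and Cnn1 also had higher means than iPSCs in both other day 4 groups, and Acta2 in spontaneous cells only. In cardiac cultures the mean of Acta2 was 6.92, against 7.05 in iPSCs. The list did not rise as a whole. Its median difference from iPSCs was 0.27 in sorted cells, -0.04 in cardiac cultures and 0.04 in spontaneous cells. Spontaneous cells measured 7.53, 8.08 and 8.74 in Tagln, 7.19, 8.01 and 8.44 in Acta2 and 7.02, 7.28 and 7.58 in Cnn1. Cardiac cultures measured 6.03, 7.99 and 7.48 in Tagln, 6.32, 7.31 and 7.12 in Acta2 and 7.03, 7.43 and 7.33 in Cnn1. Of 8 smooth muscle markers, 1 (Cnn1, 1.59 ± 0.32 SE, adjusted p = 0.0127, limma) was called higher in sorted cells than in iPSCs and 0 lower. On sorted replicate 1 alone Cnn1 differed by 0.80, under the minimum, and the sorted call was lost without iPSC replicate 2 (adjusted p = 0.0507, limma). In the main fit 0 of these markers were called in cardiac cultures or in spontaneous cells. Without the 3 libraries Tagln and Cnn1 were called higher in both of those groups.

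The mean of the smooth muscle list ran from 6.67 to 7.79 in sorted cells, 6.35 to 6.68 in cardiac cultures and 6.60 to 6.99 in spontaneous cells, against 6.28 to 6.53 in iPSCs. Myh11, the myosin heavy chain that defines mature smooth muscle, was 6.15 in sorted replicate 3, against 6.01 to 6.16 in iPSCs. The same array held the highest Tpm1 and Acta1 values. Sorted replicate 3 also had the highest mean of the broadly expressed relatives listed below, at 9.91, against 9.34 to 9.72 in the other arrays. Not every gene of that list was highest there. The high values in this array were thus not limited to smooth muscle markers. The part of either list's signal in the Tpm1 and Acta1 values was not tested. Of 14 skeletal muscle markers 0 were called by limma in any of the 7 comparisons, with 1 to 2 at an unadjusted p under 0.05 in each.

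**Figure D4:**
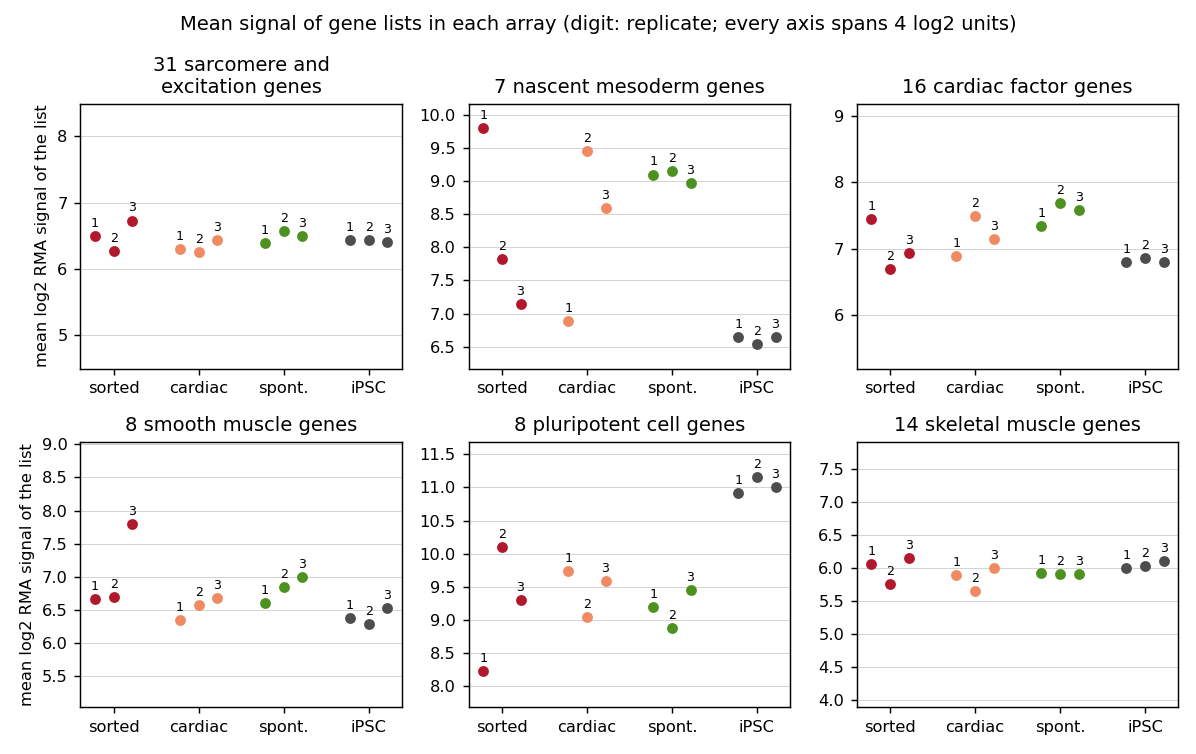
Points give the mean log2 RMA signal of each gene list in each of the 12 arrays, numbered by replicate, and every axis spans 4 log2 units. The 31 sarcomere and excitation genes stayed between 6.26 and 6.73, while the nascent mesoderm list, which holds Kdr and Pdgfra, ran from 7.15 to 9.80 in sorted arrays and from 6.89 to 9.45 in cardiac arrays, and the smooth muscle list was highest in sorted replicate 3, at 7.79.

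Some cardiac transcription factors were called higher at day 4. Of 16 factors and cofactors, 0 were called higher in sorted cells than in iPSCs (3 at an unadjusted p under 0.05, limma), 2 in cardiac cultures and 3 in spontaneous cells, and 0 were called lower in these comparisons. Tbx20, a T-box factor of the heart fields, measured 7.0, 5.45 and 6.61 in sorted cells, 6.83, 8.68 and 6.98 in cardiac cultures and 7.62, 9.43 and 9.01 in spontaneous cells, against 5.0, 5.10 and 5.40 in iPSCs. It rose by 2.33 in cardiac cultures (adjusted p = 0.0228) and by 3.52 in spontaneous cells (adjusted p = 0.00193). Gata4, a zinc finger activator of many contractile genes, rose by 1.21 in cardiac cultures (adjusted p = 0.0163) and by 1.27 in spontaneous cells (adjusted p = 0.00967). Isl1, a homeobox factor of second heart field progenitors, rose by 1.19 in spontaneous cells (adjusted p = 0.0351). Of these, the Isl1 call was lost without any 1 of its 6 arrays, the cardiac Tbx20 call without any 1 iPSC array or cardiac replicate 2, and the cardiac Gata4 call without iPSC replicate 1 or 3 or cardiac replicate 2, with adjusted p up to 0.117, 0.0892 and 0.0732. Without the 3 libraries 3 factors were called higher in cardiac cultures (Gata4, Tbx20 and Mesp1). Those libraries were left out for low Kdr, which is itself on the mesoderm list. Mesp1 was low in the same libraries, at 6.06 and 5.99 in sorted replicates 2 and 3 and 5.53 in cardiac replicate 1. These calls are therefore not independent of that choice. Nkx2-5, the homeobox factor of the cardiac crescent, measured 7.63, 7.27 and 7.84 in sorted cells, 7.51, 7.10 and 7.42 in cardiac cultures and 7.49, 7.48 and 7.55 in spontaneous cells, against 7.63, 7.57 and 7.43 in iPSCs, with overlap in every group. Mef2c, Tbx5 and Myocd, the SRF cofactor myocardin, lay between 4.65 and 5.62 in all arrays.

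Further genes of cardiac excitation and structure gave few calls too. Of 32 measured, 2 were called higher and 0 lower in sorted cells, 1 higher and 0 lower in cardiac cultures, and 1 higher and 0 lower in spontaneous cells. Gja1, the gap junction protein connexin 43, which pluripotent cells also use, rose in each, by 1.24, 1.20 and 1.21 (adjusted p = 0.000761, 0.000831 and 0.000671). Kcnj3, a subunit of the inward rectifier that acetylcholine opens in the atrium, measured 6.73, 8.78 and 8.05 in sorted cells, 6.60, 7.69 and 8.20 in cardiac cultures and 7.81, 6.55 and 6.67 in spontaneous cells, against 5.79, 5.81 and 6.01 in iPSCs. All of its day 4 arrays were above day 0, and it rose by 1.98 in sorted cells (adjusted p = 0.0337). That call rested on sorted replicates 2 and 3: on replicate 1 alone the difference was 0.86 (adjusted p = 0.193). It was also lost without any 1 iPSC array, with adjusted p up to 0.117. In the fit without the 3 libraries Kcnj3 was called higher in cardiac cultures, by 2.08, and also in spontaneous cells.

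Of 19 broadly expressed relatives of the 31 genes, 1 was called higher and 1 lower in sorted cells, 0 and 1 in cardiac cultures, and 1 and 1 in spontaneous cells. Tpm4, a tropomyosin of the general cytoskeleton, rose by 1.08 in sorted and by 1.08 in spontaneous cells (adjusted p = 0.00456 and 0.00351), and its difference was just under the minimum without iPSC replicate 2 in both, and without sorted replicate 3 in sorted cells. Atp2a3, a calcium pump of non-muscle cells, fell by 1.22, 1.19 and 1.46 in the sorted, cardiac and spontaneous groups (adjusted p = 0.00344, 0.00374 and 0.000941).

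Between day 4 groups 0 of the 31 genes were called by limma in any of the 3 comparisons. The share of all genes called was 0% for cardiac over spontaneous, 0% for sorted over cardiac and 0.00502% for sorted over spontaneous, and 4, 5 and 5 of the 31 had an unadjusted p under 0.05. The highest p among these belonged, in that order, to Actc1 (0.0305), Myh7 (0.0475) and Tnnc1 (0.0436, all limma). These ranked 413, 3023 and 2074 by p among all 19938 genes. Without the 3 libraries 0 of the 31 and 0% of all genes were called for cardiac over spontaneous. Both sorted comparisons then rest on replicate 1 alone, and calls appeared there among other genes but not among the 31. The intervals lay inside -1 to 1 for 28, 29 and 28 of the 31 genes, beside 95.2%, 94.9% and 94.8% of all genes. The largest of these differences among the 31 was that of Tnnc1 between cardiac cultures and spontaneous cells, at -0.85 ± 0.29 (SE, interval -1.48 to -0.23, adjusted p = 0.999). Myl7 differed by -0.75 between sorted and spontaneous cells (interval -1.39 to -0.10, adjusted p = 0.384). For Tpm1 the intervals were wide, at -1.70 to 0.61, -0.62 to 1.70 and -1.16 to 1.15, so that a doubling between day 4 groups could not be detected at this spread.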

How the data were processed

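Total RNA from 12 mouse samples was labelled with biotin and hybridised to 1-colour Affymetrix arrays, per the labels' protocols. The authors deposited log2 signals for 35557 probe sets; the submitters' processing notes name RMA and Affymetrix Expression Console 1.3.1. That the base is 2 was inferred from the range, 1.87 to 13.87. The sources used here do not state a genome build for the probes. RMA equalises array distributions, so changes shared by most genes cannot be seen.

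The platform annotation gave 21789 probe sets with 1 symbol, 1621 with several and 12147 with none listed. Keeping the brightest probe set per symbol left 19938 genes. All 12 arrays were fitted together in limma 3.58.1 (R 4.3.3), with prior variances that follow mean signal, 8 residual degrees of freedom and 7 contrasts. P-values are two-sided and adjusted by Benjamini-Hochberg over all genes. SDs are between arrays, and SEs are those of the contrast. The fit was tested on simulated data.

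The 31 genes and the lists were chosen with earlier results of these data known. By rule, all 31 were named with Kdr and Pdgfra, and from each list up to 4 called genes and up to 2 uncalled ones with the highest mean, of which only some are printed. Acta2, Myh11, Ankrd1, Nkx2-5, Mef2c, Tbx5, Myocd, Mesp1, Pdgfrb and Lum were named after their values were seen. Promoters are RefSeq's on GRCm38.p6. Among the alternatives were a replicate block, no trend, a filter on dim genes, averaged probe sets, other scalings, other minima and fewer arrays. Fits without the libraries near day 0 in Kdr were added after seeing the data.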

Additional observations from a re-analysis of the deposited data

How the results depend on the processing

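The count of called genes at day 4 overall was 1 and became 0 with cyclic loess and 2 with no minimum fold change, where Des was added, and leaving out 1 array gave 0 to 1. The spontaneous count was 1 and became 2 with the replicate number as a block (adding Tpm1, adjusted p = 0.0269), 2 with a filter on dim genes, 2 with only the arrays compared, 3 (with Actc1 and Tpm1) with arrays centred on their medians and 3 with no minimum fold change, and leaving out 1 array gave 0 to 2. Where such a fit kept a count of 1, the gene was Des and not Tnnc1 without iPSC replicate 2 or 3 or spontaneous replicate 2. The cardiac count was 0 and became 1 with no minimum fold change, 1 (Tpm1) with only the arrays compared and 1 (Tpm1) without the 3 libraries near day 0 in Kdr, and it stayed 0 with any 1 array left out. The sorted count was 0 and became 1 (Tpm1, adjusted p = 0.0405) with the block, 1 with no minimum fold change, 1 (Des, on sorted replicate 1 alone) without sorted replicates 2 and 3 and 1 without all 3 libraries, and leaving out 1 array gave 0 to 1. The filter on dim genes left the 16 weak genes with no value. The 3 counts between day 4 groups stayed at 0 in the alternatives run. The count of genes on was 22, 23 and 24 in sorted, cardiac and spontaneous cells, against 24 in iPSCs, and became 8, 10 and 12, against 10, with the 99th percentile and 10, 10 and 13, against 14, with the array median. Replicate numbers did not pair the samples: 6 of 18 same-numbered pairs had a correlation of deviations over 0.1 (from -0.382 to 0.307), and in 15 of 36 comparisons a sample correlated best with its own number. No called value of a single gene changed sign, and 214 of 3515 values that missed the test on both sides did; the causes of changed calls were not tested.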
